A study of Mus musculus with 9 samples.

Results

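The 55 genes described here are the Wnt ligands, receptors and pathway components of the mouse colonic epithelium. They were picked from the deposited count table by symbol alone: every Wnt gene (19), every Frizzled receptor gene (10 Fzd genes), the 3 Dishevelled genes (Dvl1 to Dvl3) and 23 further components given by name, from the secretion factors Porcn and Wls to the target gene Myc. All 55 were found among the 46095 symbols of the table. The comparison sets 5 Smad4 Vil-KO;Setd2 Vil-KO libraries against 4 of the Smad4 Vil-KO genotype, each from the intestinal epithelial cells (IECs) of a mouse on the C57BL/6J background. In both genotypes Cre recombinase under the Villin promoter, which is active in the intestinal epithelium, acts on floxed Smad4, so that the controls carry the Smad4 deletion as well. In the second genotype, called the double knockout below, the same Cre also deletes floxed Setd2, whose enzyme puts the trimethyl mark on lysine 36 of histone H3. All mice were given the carcinogen azoxymethane (AOM, 10 mg/kg) at 8 weeks of age and then dextran sulphate sodium (DSS, 2%), an agent that injures the colonic epithelium, and IECs were released from the colon with EDTA at day 10 of the treatment. Wild-type mice and mice that lack Setd2 alone were not analysed here, so that a change describes the loss of Setd2 on top of the loss of Smad4.

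Wnt ligands are secreted lipid-modified proteins. They bind a Frizzled receptor and the co-receptor Lrp5 or Lrp6 and, through a Dishevelled protein, stop the destruction complex of Apc, Axin1 and Gsk3b from marking β-catenin (Ctnnb1) for degradation. β-catenin then enters the nucleus and switches genes on together with a TCF/LEF factor. In the colon this pathway keeps the crypt stem cells dividing, and its activation, most often by loss of Apc, is the usual early step of colorectal cancer. Most Wnt ligands of the colon are made by mesenchymal cells under the epithelium, whereas the receptors and the intracellular parts are in the epithelial cells. Secreted antagonists and intracellular inhibitors, several of which are themselves Wnt target genes, hold the signal back.

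The libraries held 12487129 to 17120202 counts each, and after TMM normalization 1 count was worth 0.0594 to 0.0794 CPM (a gene's count scaled by the size of its library). Setd2 lay at 118, 120, 99.2 and 114 CPM in the Smad4 Vil-KO libraries and at 57.8, 87.1, 55.7, 53.9 and 76.1 CPM in the double-knockout libraries (log2 fold change -0.77 ± 0.15 SE, edgeR adjusted p = 0.00756). Smad4, whose deletion both genotypes carry, was still counted in every library, at 92.7, 54.3, 54.4 and 55.4 CPM in the Smad4 Vil-KO and 60.1, 114, 38.2, 40.5 and 98.7 CPM in the double-knockout libraries. Counts per gene do not separate the deleted exons from the rest, so that these values do not show the deletion. Smad4 did not pass the test (0.13 ± 0.33 SE, edgeR adjusted p = 0.819), and its direction was not stable. The fitted change was -0.11 without double-knockout replicate 2, -0.71 with a term for the libraries with high Y-linked counts (edgeR adjusted p = 0.145) and -0.70 with only the libraries without such counts (edgeR adjusted p = 0.0508). Summed counts of Uty, Kdm5d, Ddx3y and Eif2s3y, 4 genes of the Y chromosome, were high in double-knockout replicates 1, 2 and 5 (3857 to 4907 counts) and at 0 to 28 in the other 6 libraries. The 7 epithelial markers summed to 12200 to 14800 CPM over all 9 libraries, while the 10 fibroblast and telocyte markers summed to 29.6 to 46.9 CPM in the Smad4 Vil-KO and 37.1 to 85.4 CPM in the double-knockout libraries, with Foxl1 at 0 throughout. The 5 smooth muscle markers summed to at most 3.44 CPM in any library, the 5 endothelial markers to at most 10.7 CPM, and the 12 leukocyte markers to between 51.8 and 174 CPM. The 5 enteric neuron and glia markers summed to 0.951 to 2.18 CPM in the Smad4 Vil-KO and 2.12 to 3.85 CPM in the double-knockout libraries, with Sox10 at 0 throughout, and 1 of the 2 tested (Elavl4) passed as higher. Some markers of epithelial region and cell type moved with the genotype. Of the colonic epithelium markers, Muc2, the main mucin of goblet cells, fell from 4835 to 7553 CPM in the Smad4 Vil-KO libraries to 1672 to 2758 CPM in the double-knockout libraries (log2 fold change -1.62 ± 0.18 SE, edgeR adjusted p = 0.000542), and Car1, Aqp8 and Slc26a3 did not pass the test. The 9 markers of small intestinal enterocytes summed to 408 to 482 CPM against 634 to 1530 CPM, and 6 of the 8 tested passed as higher. By the chi-square of their counts per gene, double-knockout replicates 1 and 2 stood apart from replicates 3, 4 and 5 (46.4 to 70.3 between them, 20.9 within the first set and 9.95 to 28.8 within the second), and Smad4 Vil-KO replicate 1 from the other 3 (27.5 to 42.4, against 11.6 to 13 among those). In bulk libraries fewer cells of a type and less RNA per cell cannot be told apart, and the part of these markers and of the libraries that stood apart in the results that follow was not tested, beyond the fits that left out 1 library.

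The study's RT-qPCR primer list includes 3 of the 55 genes: Cxxc4, Fzd3 and Sfrp1. Their primers are shown because they fix which part of each transcript that assay reads, 5′ to 3′ and in lower case throughout.
Cxxc4 forward: cagttgcaggaaccgcaaaac
Cxxc4 reverse: tgttctctctagcgaagtgcc
Fzd3 forward: atggctgtgagctggattgtc
Fzd3 reverse: ggcacatcctcaaggttataggt
Sfrp1 forward: caacgtgggctacaagaagat
Sfrp1 reverse: ggccagtagaagccgaagaac
On GRCm38 the Cxxc4 forward primer matched chr3:134240628-134240648 in exon 3, and the reverse primer spanned the junction of exons 3 and 4, for a product of 94 bp carried by 2 of 5 annotated transcripts. Both Fzd3 primers matched exon 2 on chromosome 14, the forward primer on the minus strand (chr14:65253112-65253132) and the reverse primer on the plus strand. The product of 109 bp is carried by 1 of 2 transcripts. Both Sfrp1 primers matched exon 1 on chromosome 8 (forward primer at chr8:23411991-23412011), for a product of 249 bp carried by the only annotated transcript. The counts analysed here were made per gene and do not separate these transcripts.

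RefSeq promoter windows (GRCm38.p6, 250 bases before to 50 after a transcript start) were at hand for 37 of the 55 members. The windows of the 4 of them that passed the test between the genotypes (below) are shown, since they are the windows given for genes whose level changed. Capitals mark the GC box GGGCGG on either strand, a match to the letters bound by Sp1 family factors. The windows are on the plus strand, for Dvl1 at chr4:155847152-155847451, for Cxxc4 at chr3:134236245-134236544, for Nkd1 at chr8:88527383-88527682 and for Wnt8b at chr19:44493222-44493521. The Dvl1 and Wnt8b windows start 250 bases before the annotated gene start, but the Cxxc4 window starts 101 bases and the Nkd1 window 6041 bases after it, so that these 2 belong to transcripts that start inside the gene.
Dvl1: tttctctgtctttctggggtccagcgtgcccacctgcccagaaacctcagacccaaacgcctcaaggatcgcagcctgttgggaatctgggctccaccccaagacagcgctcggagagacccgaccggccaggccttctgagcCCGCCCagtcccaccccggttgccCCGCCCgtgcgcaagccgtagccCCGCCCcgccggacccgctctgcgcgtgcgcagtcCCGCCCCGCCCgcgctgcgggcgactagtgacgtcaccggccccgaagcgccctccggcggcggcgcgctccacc
Cxxc4: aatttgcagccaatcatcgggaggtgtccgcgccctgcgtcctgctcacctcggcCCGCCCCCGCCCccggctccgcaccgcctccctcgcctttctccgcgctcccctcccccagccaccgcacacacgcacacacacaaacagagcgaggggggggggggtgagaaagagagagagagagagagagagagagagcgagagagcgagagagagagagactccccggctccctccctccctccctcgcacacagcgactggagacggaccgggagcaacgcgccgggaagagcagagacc
Nkd1: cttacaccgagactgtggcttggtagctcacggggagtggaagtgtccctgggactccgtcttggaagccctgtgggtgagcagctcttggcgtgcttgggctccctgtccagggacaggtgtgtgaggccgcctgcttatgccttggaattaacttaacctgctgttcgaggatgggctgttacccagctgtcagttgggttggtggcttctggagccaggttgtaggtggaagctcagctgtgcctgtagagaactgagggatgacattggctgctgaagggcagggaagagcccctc
Wnt8b: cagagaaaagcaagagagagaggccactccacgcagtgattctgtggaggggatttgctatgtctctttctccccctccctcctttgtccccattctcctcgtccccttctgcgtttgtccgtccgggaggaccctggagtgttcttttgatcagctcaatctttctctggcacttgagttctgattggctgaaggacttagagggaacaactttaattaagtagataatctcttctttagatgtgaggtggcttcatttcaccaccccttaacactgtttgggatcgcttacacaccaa
Dvl1, which fell, had 5 GC boxes in its window, of which the last 2 share 1 base, and a GC content of 72.3%. Cxxc4, which rose, had 2 GC boxes and a GC content of 68%, while Nkd1 and Wnt8b, which fell, had none, at 58.3% and 48.3% (median of all promoters 52.7%). A GC box was found in a window of 30 of the 37 members, against 35.7% of all 32851 promoters in the table. Members were counted as genes, with 46 windows between them, and the background as single promoters. The 2 shares are therefore not in like units, here and for the next motif. The letters CTTTGA, the core of the site bound by TCF/LEF factors, were searched on both strands as well. They were present in a window of 5 of the 37 members (Fzd1, Gsk3b, Lef1, Wnt11 and Wnt5b), against 16% of all promoters, and in none of the 4 windows shown.

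Levels per length differed widely within most roles. Counts were divided by the merged exon length of each gene, and levels are given for the 31 members with enough counts for the test, while the shares of the Frizzled family are of the sum over all 10 genes. Ctnnb1, the signal carrier, had by far the highest level, at 202 CPM per kb in the Smad4 Vil-KO and 187 CPM per kb in the double-knockout libraries. Among the receptors Lgr4, which binds R-spondins and so protects Frizzled receptors from removal, had 41.9 and 41.2 CPM per kb, and Fzd5 had 19.9 and 22.3 CPM per kb. Fzd5 made up 53% to 64% of the summed Frizzled level per length in the 9 libraries, followed by Fzd1 (10.5% to 18.8%) and Fzd7 (10.3% to 15.3%). Wls, which carries Wnt ligands to the cell surface, had 14.2 and 13 CPM per kb. The ligands were low: the highest of the 3 tested was Wnt8b in the Smad4 Vil-KO libraries, at 0.416 CPM per kb, and Wnt6 in the double-knockout libraries, at 0.355 CPM per kb.

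**Figure D1:**
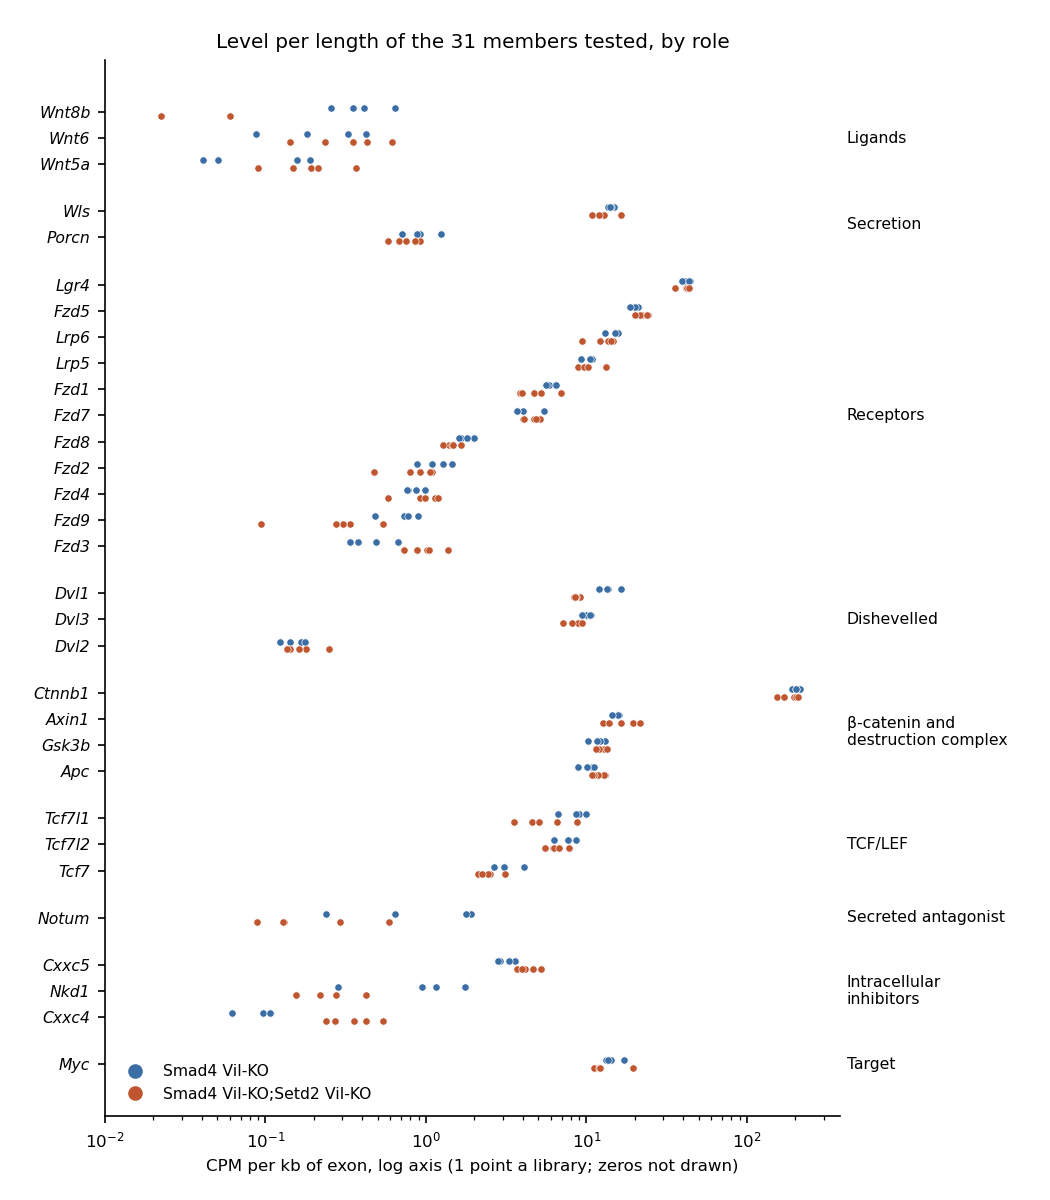
Level per length (CPM per kb of exon, log axis) of the 31 members tested, grouped by role, with 1 point for each of the 4 Smad4 Vil-KO (blue) and 5 double-knockout (orange) libraries. Ctnnb1 lies highest in both genotypes (202 and 187 CPM per kb on average), and Wnt8b, Wnt6, Wnt5a and Dvl2 lie among the lowest.

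Between the genotypes few members changed. Of the 55 members 31 had enough counts for the test, and 5 of these passed it at an adjusted p under 0.05 (edgeR's quasi-likelihood test with adjustment over all 14593 genes tested). Fzd3 and Cxxc4 rose in the double knockout, and Dvl1, Nkd1 and Wnt8b fell. Wnt8b was among the 31 only through its counts in the Smad4 Vil-KO libraries. The 2 higher members are 6.45% of the 31, against 6.76% of all genes tested, and the 3 lower members are 9.68%, against 6.54%; called in either direction were 16.1% of the members and 13.3% of all genes. The share of members called was thus near the background in both directions. The median log2 fold change over the 31 was -0.13, beside a median of -0.0006 over all genes, with 12 members above and 19 below 0. With calls made at more than 1.5-fold and an unadjusted p under 0.05, 2 members were higher and 5 lower, against 7.54% and 6.24% of all genes. Without double-knockout replicate 5, 6 members were lower in place of 3, with Fzd1, Fzd9 and Tcf7l1 added, against 9.08% of all genes in that fit. The libraries of the 2 genotypes did not overlap for Fzd3, Cxxc4 and Cxxc5 (higher in the double knockout) and for Dvl1 and Wnt8b (lower), against 8.34% and 8.87% of all genes tested.

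**Figure D2:**
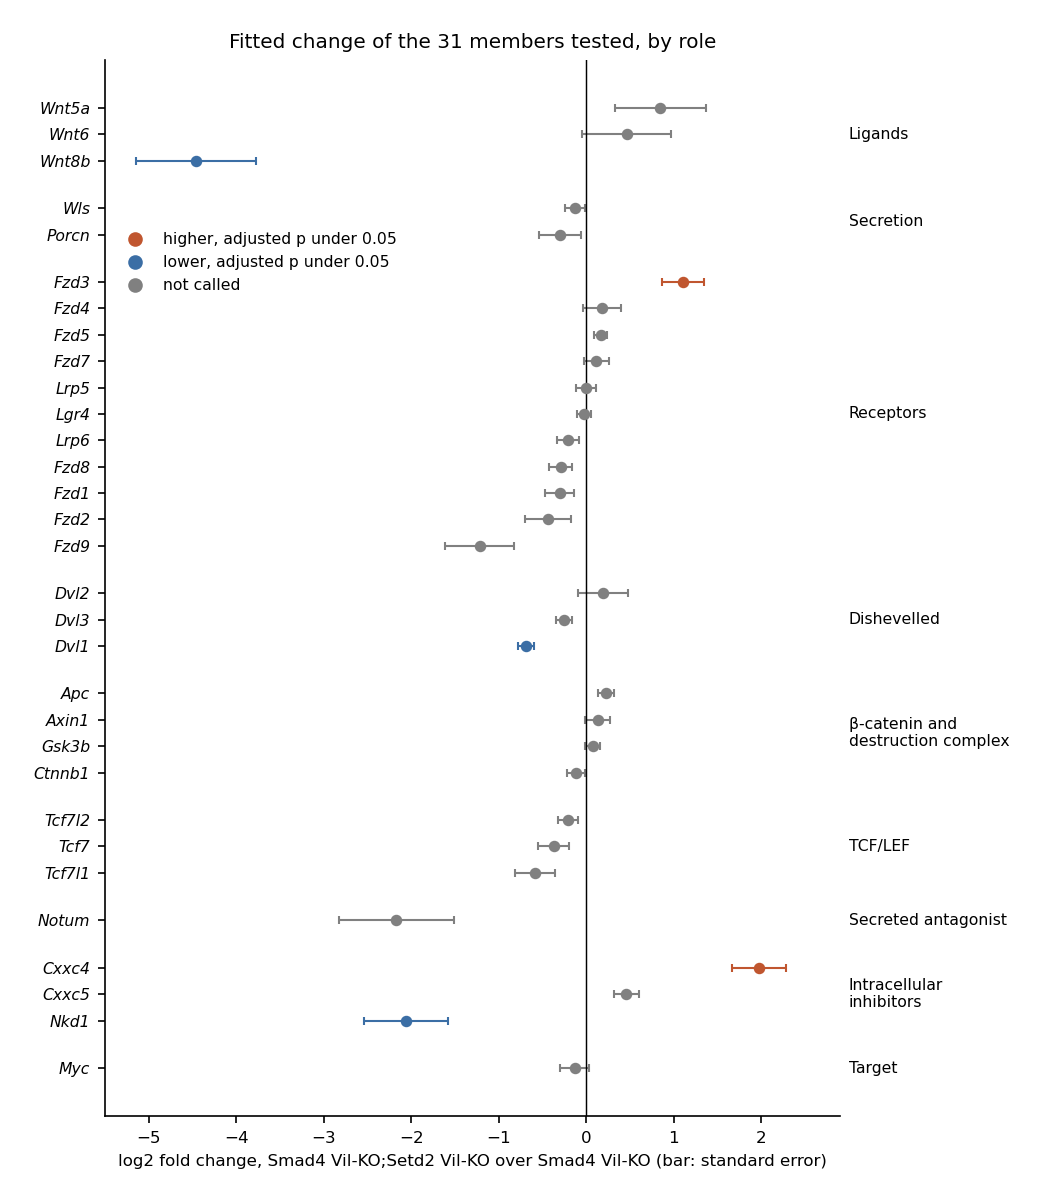
Fitted log2 fold change (double knockout over Smad4 Vil-KO, with its standard error) of the 31 members tested, by role, with members called higher in orange, called lower in blue and not called in grey. Of the 31 points 12 lie above and 19 below 0, and the 5 called members are Wnt8b (-4.46), Nkd1 (-2.06), Dvl1 (-0.69), Fzd3 (1.11) and Cxxc4 (1.97).

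Wnt8b was the only ligand that passed the test. It had enough counts to be tested only through the Smad4 Vil-KO libraries, where it was high. It encodes a Wnt protein best known from the developing forebrain. The Smad4 Vil-KO libraries held 35, 15, 20 and 18 counts of it and the double-knockout libraries 0, 0, 3, 0 and 1, so that every control library lay above every double-knockout library. Summed over libraries these are 88 against 4 counts, a level 25 times higher in the Smad4 Vil-KO libraries with a 95% counting interval of 9.41 to 93.7 (edgeR adjusted p = 0.00288). Since no double-knockout library held more than 3 counts, the size of the ratio is poorly fixed. Without double-knockout replicate 3 it was 79.3 (interval 13.9 to 3170), and with only the libraries without high Y-linked counts 12.9 (interval 4.28 to 63.9). The interval covers counting error only, and the highest value was 2.25 CPM. Wnt5a, a ligand that acts mainly without β-catenin, was measured at 0.321, 1.49, 1.23 and 0.397 CPM in the Smad4 Vil-KO and 1.15, 1.49, 2.87, 1.65 and 0.698 CPM in the double-knockout libraries. These ranges overlapped (0.85 ± 0.52 SE, edgeR adjusted p = 0.291). Wnt6, which signals through β-catenin, lay at 0.193 to 0.921 CPM against 0.31 to 1.35 CPM (0.46 ± 0.51 SE, edgeR adjusted p = 0.572).

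The other 16 ligands were below the filter on low counts. Wnt1, Wnt3a, Wnt8a and Wnt9b had no count in any library, which allows up to 3 counts or 0.178 to 0.238 CPM per library. Wnt2, Wnt4, Wnt7a, Wnt7b and Wnt9a stayed at 3 counts or fewer everywhere. Wnt2b, Wnt3, Wnt5b, Wnt10a, Wnt10b, Wnt11 and Wnt16 reached at least 7 counts in some library, up to 1.79 CPM for Wnt11 in double-knockout replicate 1. Wnt3, which Paneth cells of the small intestine make, had 1, 4, 5 and 8 counts against 2, 4, 1, 8 and 1 counts, with full overlap. Wnt11 had 1, 9, 9 and 4 counts against 28, 23, 7, 7 and 6 counts. Only its double-knockout replicates 1 and 2 lay above all Smad4 Vil-KO libraries. Wnt10a had 0, 0, 4 and 7 counts against 1, 0, 0, 0 and 0, and all 7 counts of Wnt16 came from Smad4 Vil-KO replicate 4. In a fit without a filter on low counts the edgeR adjusted p of the 12 ligands with a count ran from 0.178 (Wnt10a) to 0.96 (Wnt2), so that none passed the test. The counting interval of the summed counts was not computed for Wnt7a and Wnt16, which had no count in the double knockout. Among the others it left out 1 for 4. These were Wnt11 (2.72 times higher in the double knockout, interval 1.68 to 4.56), Wnt2b (1.91 times higher, interval 1.07 to 3.55), Wnt5b (1.84 times higher in the Smad4 Vil-KO libraries, interval 1.04 to 3.33) and Wnt10a (12.5 times higher there, interval 1.81 to 537, from 11 counts against 1). Such intervals cover counting error and not the spread between libraries. Both secretion factors were measured well enough to test. Wls lay at 130, 120, 126 and 123 CPM against 94.9, 112, 114, 105 and 145 CPM (-0.13 ± 0.11 SE, edgeR adjusted p = 0.458). Porcn, the enzyme that attaches the lipid to Wnt ligands, lay at 2.14 to 3.72 CPM against 1.75 to 2.76 CPM (-0.30 ± 0.24 SE, edgeR adjusted p = 0.416).

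Among the receptors Fzd3 rose. Fzd3 is a Frizzled best known for planar cell polarity and axon guidance. It was measured at 4.81, 8.56, 6.26 and 4.29 CPM in the Smad4 Vil-KO libraries and at 13, 17.5, 11.3, 13.4 and 9.38 CPM in the double-knockout libraries. All double-knockout values lay above all control values, with means of 5.98 ± 1.91 (SD, n = 4) and 12.9 ± 3.02 (SD, n = 5) CPM. The log2 fold change was 1.11 ± 0.24 SE (edgeR adjusted p = 0.0142). With a term for the libraries with high Y-linked counts the change was 1.04 (edgeR adjusted p = 0.0581), and with only the libraries without such counts 1.04 (edgeR adjusted p = 0.0211). Per length Fzd3 stayed a minor Frizzled, at 1.33% of the summed Frizzled level in the Smad4 Vil-KO and 2.75% in the double-knockout libraries.

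The leading receptors did not pass the test. Lgr4 lay at 241, 258, 231 and 258 CPM against 210, 247, 248, 249 and 257 CPM (log2 fold change -0.03, 95% interval -0.18 to 0.13). Fzd5, the leading Frizzled, lay at 130 to 145 CPM against 140 to 166 CPM (0.17 ± 0.07 SE, edgeR adjusted p = 0.155). The co-receptors were close to level in Lrp5 (90.3 to 105 CPM against 86.2 to 129 CPM, log2 fold change -0.001, 95% interval -0.22 to 0.22) and at 178 to 214 CPM against 129 to 201 CPM in Lrp6 (-0.21 ± 0.12 SE, edgeR adjusted p = 0.276). Fzd9 lay at 2.05, 1.66, 1.78 and 1.11 CPM against 0.769, 0.213, 0.699, 0.629 and 1.24 CPM, where only double-knockout replicate 5 lay within the control range (-1.22 ± 0.40 SE, edgeR adjusted p = 0.0666, and 0.0257 without double-knockout replicate 5). The fitted changes of Fzd1, Fzd2, Fzd4, Fzd7 and Fzd8 ran from -0.44 (Fzd2) to 0.18 (Fzd4), with edgeR adjusted p from 0.16 to 0.606. Fzd6 and Fzd10 were below the filter, at 2 to 8 and 3 to 17 counts per library.

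Dvl1 fell. Dishevelled proteins carry the signal from Frizzled to the destruction complex, and Dvl1 to Dvl3 are the 3 genes of the family. Dvl1 (chr4:155847402-155859303, GRCm38) was measured at 59.5, 68.3, 81.6 and 67.4 CPM in the Smad4 Vil-KO libraries and at 42, 41.8, 45.6, 43.1 and 42.7 CPM in the double-knockout libraries. The double-knockout values were tight (43 ± 1.52 SD, n = 5, against 69.2 ± 9.16 SD, n = 4) and all lay below the lowest control value. The log2 fold change was -0.69 ± 0.09 SE (edgeR adjusted p = 0.00154), and it stayed under an adjusted p of 0.05 in all 18 alternatives run. Dvl3 lay at 60.2 to 68.5 CPM against 45.9 to 60.6 CPM, ranges that overlapped in double-knockout replicate 5 alone (-0.25 ± 0.09 SE, edgeR adjusted p = 0.0946). With only the libraries without high Y-linked counts Dvl3 passed the test, at a log2 fold change of -0.40 (edgeR adjusted p = 0.017). Dvl1 made up 54.1% to 60.4% of the summed Dishevelled level per length in the Smad4 Vil-KO and 47.1% to 55.4% in the double-knockout libraries, and 54.5% to 60.8% and 47.5% to 56% of the sum of Dvl1 and Dvl3 alone, since the level of Dvl2 is uncertain.

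Dvl2 was counted at a level far under its relatives, at 0.898, 0.772, 1.04 and 1.11 CPM in the Smad4 Vil-KO and 0.897, 1.56, 1.12, 1.02 and 0.853 CPM in the double-knockout libraries (0.19 ± 0.29 SE, edgeR adjusted p = 0.679). In both genotypes it was at most 1.42% of the summed Dishevelled level per length. The genes next to it were low as well, which was looked at after these values were seen. Dvl2 lies at chr11:70000592-70010109 on GRCm38. Within 100 kb of it the table held 15 protein-coding genes with a median of 0.821 CPM, among them genes that most cells use: Eif5a, a translation factor, at a mean of 10 CPM, Gabarap, of autophagy, at 4.7 CPM, and Acadvl, of fatty acid oxidation, at 5.22 CPM. Cldn7, a claudin of epithelial tight junctions, had 7.96 CPM. Among the 21 protein-coding genes that end 200 to 600 kb before Dvl2, 9 had at least 10 CPM, with Eif4a1 at 183 CPM, Polr2a at 158 CPM and Trp53 at 61.4 CPM, against 1 of the 15 near Dvl2. On the other side counts stayed low, and none of the 22 protein-coding genes that start 100 to 600 kb after Dvl2 had a mean over 2.84 CPM. Some genes near Dvl2 differed widely between libraries, as Eif5a (3.86 to 42.7 CPM) and Acadvl (1.43 to 20.6 CPM) did, while Gabarap (3.62 to 5.91 CPM) and Cldn7 (5.76 to 11.1 CPM) differed less. The counting program is not given in the sources used here, and the cause was not tested. The level of Dvl2 is therefore uncertain.

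**Figure D3:**
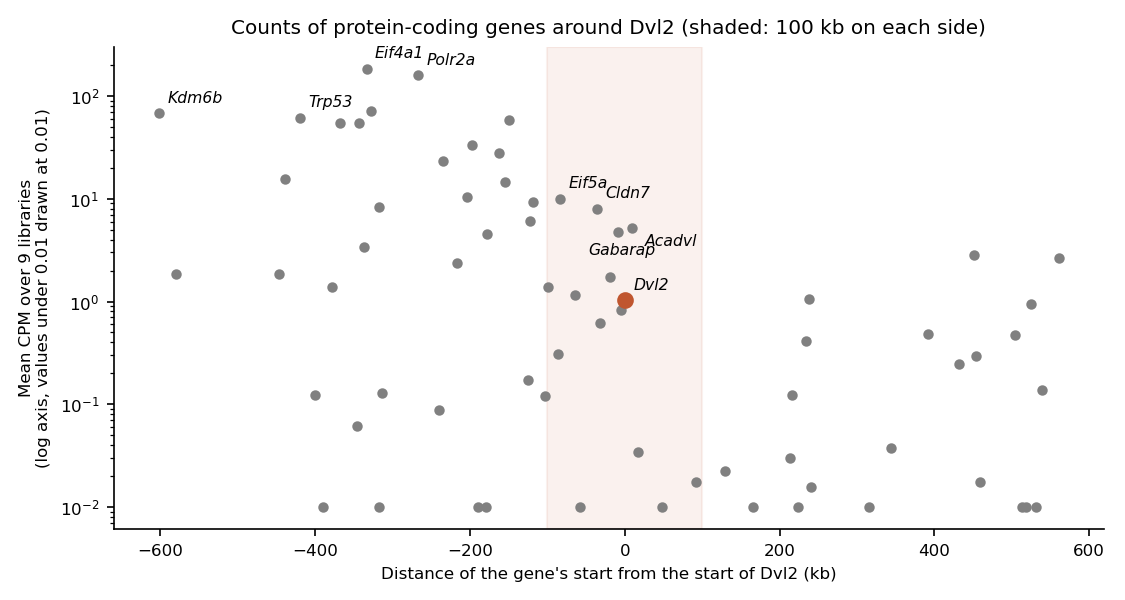
Mean CPM over the 9 libraries (log axis) of the protein-coding genes within 600 kb of Dvl2, by the distance of their start from that of Dvl2 (kb), with Dvl2 in orange and 100 kb on each side shaded. Genes in the shaded stretch have means of at most 10 CPM (Eif5a) and those to its right of at most 2.84 CPM, while Eif4a1 and Polr2a to the left lie at 183 and 158 CPM.

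β-catenin and the destruction complex did not pass the test in any member. Ctnnb1 was at 997, 1112, 1051 and 1042 CPM in the Smad4 Vil-KO libraries and at 801, 884, 1023, 1047 and 1087 CPM in the double-knockout libraries. Double-knockout replicates 1 and 2 were low and the other 3 lay inside the control range (-0.12 ± 0.10 SE, 95% interval -0.32 to 0.09). Apc, the scaffold whose loss starts most colorectal tumours, was at 175, 180, 142 and 163 CPM against 210, 207, 191, 179 and 175 CPM (0.22 ± 0.09 SE, edgeR adjusted p = 0.128). Gsk3b, the kinase of the complex, had a 95% interval of -0.09 to 0.24 on the log2 scale and Axin1, its other scaffold, of -0.16 to 0.42, around changes of 0.07 and 0.13. Axin1 was higher in double-knockout replicates 1 and 2 (74.2 and 82.8 CPM) than in replicates 3, 4 and 5 (48.7, 52.7 and 63) or in the controls (55 to 60.7 CPM). With only the libraries without high Y-linked counts its fitted change turned to -0.21.

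The 3 TCF/LEF factors tested were all fitted below 0, here and in every alternative run. None passed the test in the main fit. Tcf7l1, mostly a repressor, lay at 35, 26, 38.8 and 33.7 CPM against 18, 13.8, 25.8, 20 and 34 CPM, with 4 of 5 double-knockout values under all controls and replicate 5 among them (-0.58 ± 0.23 SE, edgeR adjusted p = 0.115, and 0.0217 without double-knockout replicate 5). It also passed with the replicate number as a block (edgeR adjusted p = 0.0104). Tcf7l2 lay at 55.2 to 75 CPM against 48.7 to 68.7 CPM (-0.21 ± 0.12 SE, edgeR adjusted p = 0.25), and Tcf7, an activator that is itself a Wnt target, at 6.99 to 10.7 CPM against 5.52 to 8.14 CPM (-0.37 ± 0.18 SE, edgeR adjusted p = 0.178). Of the summed TCF/LEF level per length, Tcf7l1 and Tcf7l2 made up 43.9% and 39% on average in the Smad4 Vil-KO libraries. In the double-knockout libraries these shares were 37.9% and 44.6%. Lef1, an activator and Wnt target, was below the filter with 3 to 15 counts per library.

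The intracellular inhibitors held 2 of the 5 called members, which went opposite ways. Cxxc4 (also called Idax), which binds Dishevelled, was measured at 0.834, 1.43, 1.29 and 1.43 CPM in the Smad4 Vil-KO libraries and at 3.65, 4.77, 7.27, 5.66 and 3.18 CPM in the double-knockout libraries. No values overlapped, and the means were 1.25 ± 0.281 (SD, n = 4) and 4.91 ± 1.64 (SD, n = 5) CPM. The log2 fold change was 1.97 ± 0.30 SE (edgeR adjusted p = 0.003), and the call was kept in all 18 alternatives run. Cxxc5, its relative, which also binds Dishevelled and is a Wnt target in some tissues, lay at 10.8, 9.92, 8.66 and 8.49 CPM against 11.1, 15.6, 12.4, 11.9 and 14 CPM. Its groups did not overlap, but it missed the threshold (0.46 ± 0.14 SE, edgeR adjusted p = 0.0563). It passed under DESeq2 (DESeq2 adjusted p = 0.022), with scaling by library size alone (edgeR adjusted p = 0.04) and without double-knockout replicate 1 (edgeR adjusted p = 0.0452), and over all its alternatives the adjusted p reached 0.238.

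Nkd1, a feedback inhibitor that binds Dishevelled and is induced by Wnt signalling, fell. It was measured at 1.28, 4.34, 5.28 and 7.94 CPM in the Smad4 Vil-KO libraries and at 0.705, 0.996, 1.26, 0.708 and 1.94 CPM in the double-knockout libraries. The control libraries spread widely, and the lowest of them, replicate 1, lay inside the double-knockout range. The log2 fold change was -2.06 ± 0.48 SE (edgeR adjusted p = 0.0192). The call was lost without Smad4 Vil-KO replicate 3 (edgeR adjusted p = 0.0587), without Smad4 Vil-KO replicate 4 (-1.70, edgeR adjusted p = 0.0575), under limma-voom (limma adjusted p = 0.0572) and with a term for high Y-linked counts (-2.23, edgeR adjusted p = 0.0753), always with the same direction, and over all its alternatives the adjusted p ran from 0.00058 to 0.0753.

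**Figure D4:**
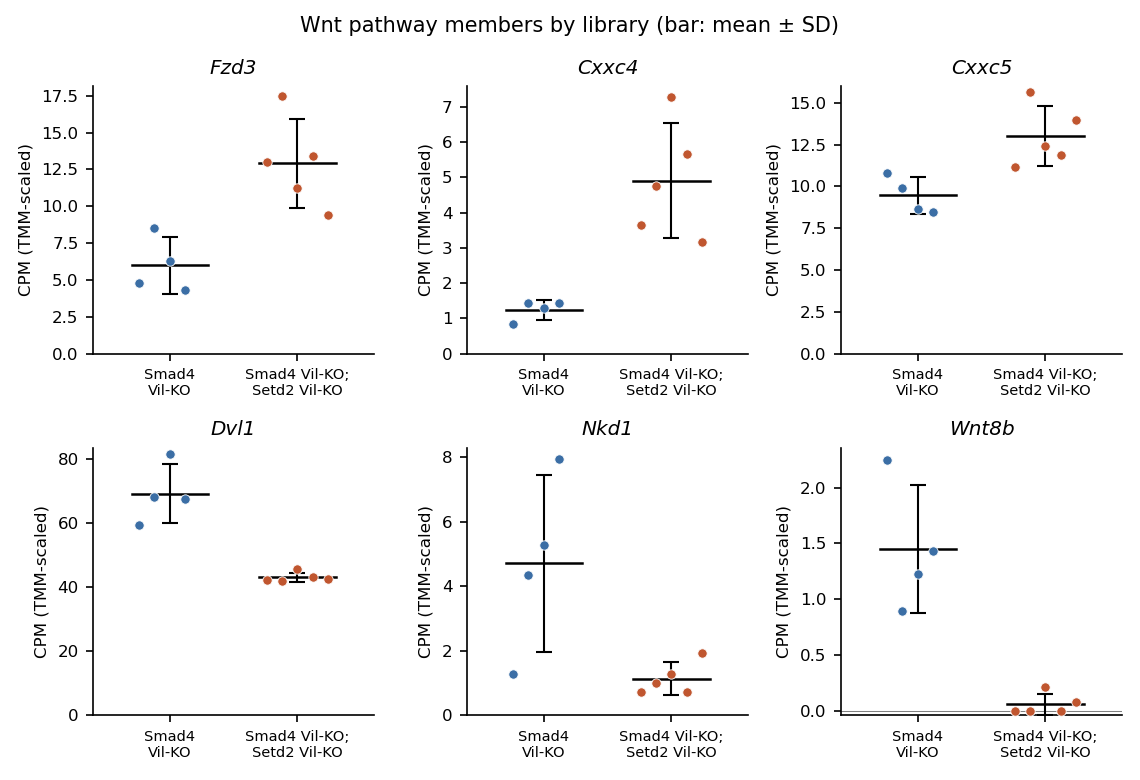
CPM in each of the 4 Smad4 Vil-KO and 5 double-knockout libraries for the 5 called members and Cxxc5, with the mean and SD of each genotype in black. Fzd3, Cxxc4 and Cxxc5 lie higher and Dvl1 and Wnt8b lower in every double-knockout library, while Nkd1 overlaps through Smad4 Vil-KO replicate 1 (1.28 CPM).

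The secreted antagonists were low, and 5 of the 6 were below the filter on low counts. Notum, an enzyme that removes the lipid from Wnt ligands and that is induced by Wnt signalling, was the only 1 of the 6 that could be tested. It lay at 0.577, 1.55, 4.61 and 4.29 CPM against 1.41, 0.213, 0.699, 0.315 and 0.31 CPM, with Smad4 Vil-KO replicates 3 and 4 far above all other libraries. The fitted change was -2.17 ± 0.66 SE (edgeR adjusted p = 0.0518), and the adjusted p over its alternatives ran from 0.0119 to 0.162. Dkk2, which blocks Lrp5 and Lrp6, had 1, 7, 8 and 12 counts in the Smad4 Vil-KO libraries and no count in any double-knockout library, so that its mean level was at least 2.22-fold lower against a floor of 3 counts per double-knockout library. Without a filter on low counts Dkk2 was called lower (edgeR adjusted p = 0.0142), as were 3.6% of all 26890 genes in that fit (3.37% were called higher). Wif1, which binds Wnt ligands, had 6, 10, 21 and 10 counts against 0, 0, 2, 1 and 7 counts, with replicate 5 the only double-knockout library inside the control range. Its summed counts gave a level 5.33 times higher in the Smad4 Vil-KO libraries (95% counting interval 2.66 to 11.8). Without double-knockout replicate 5, which held 7 of the 10 counts of its genotype, the ratio was 14.5 (interval 4.66 to 72.8). Without a filter on low counts Wif1 missed the threshold (edgeR adjusted p = 0.0842), and with only the libraries without high Y-linked counts it was called lower. Sfrp5, a decoy with a Frizzled-like domain, had 4, 6, 3 and 1 counts against 0, 0, 0, 0 and 2.

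Sfrp1, another such decoy and the third gene of the primer list, went the other way. Counts were 1, 3, 2 and 6 in the controls and 26, 47, 5, 9 and 4 in the double knockout, and it did not reach the filter. Summed counts were 12 against 91, a level 6.68 times higher in the double knockout with a 95% counting interval of 3.64 to 13.4. Double-knockout replicates 1 and 2 carried most of these counts, and replicates 3 and 5 lay within the control range. The ratio was 4.05 (interval 2.1 to 8.42) without double-knockout replicate 2, 10.6 (interval 4.69 to 29.7) without Smad4 Vil-KO replicate 4 and 2.65 (interval 1.14 to 6.26) with only the libraries without high Y-linked counts. Without a filter Sfrp1 missed the threshold (edgeR adjusted p = 0.0504). In the same replicates 1 and 2 the fibroblast and telocyte markers summed to 57.7 and 63.9 CPM, against 37.1 to 85.4 CPM over the double knockout, where replicate 3, with 5 counts of Sfrp1, had the highest sum. The markers did not share 1 order over the double-knockout libraries, and those named here were chosen after their values were seen. Dcn, Col3a1, Col1a2 and Col1a1, of the extracellular matrix, were highest in replicate 3 (28.7, 17.8, 6.01 and 3.98 CPM), and Pdgfrb was lower in replicates 1 and 2 (8.08 and 8.25 CPM) than in the other 3 (9.86 to 11.4 CPM). Pdgfra, a receptor of mesenchymal cells, was highest in replicates 1 and 2, as Sfrp1 was. It had 1, 2, 4 and 3 counts in the controls and 47, 23, 12, 5 and 1 in the double knockout (no filter, log2 fold change 2.80, edgeR adjusted p = 0.0446). Vim was highest in replicates 1 and 2 as well, at 19.2, 20.4, 17.7, 19.1 and 7.83 CPM in the double knockout, against 9.11 to 14.9 CPM in the controls. Lum had 3, 5, 7, 4 and 4 counts in the double knockout, and Gli1 had 6, 1, 1, 3 and 0. The part of mesenchymal cells in the Sfrp1 counts was not tested. Dkk3, a relative of the Dkk antagonists, had 4 to 14 counts against 5 to 12.

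**Figure D5:**
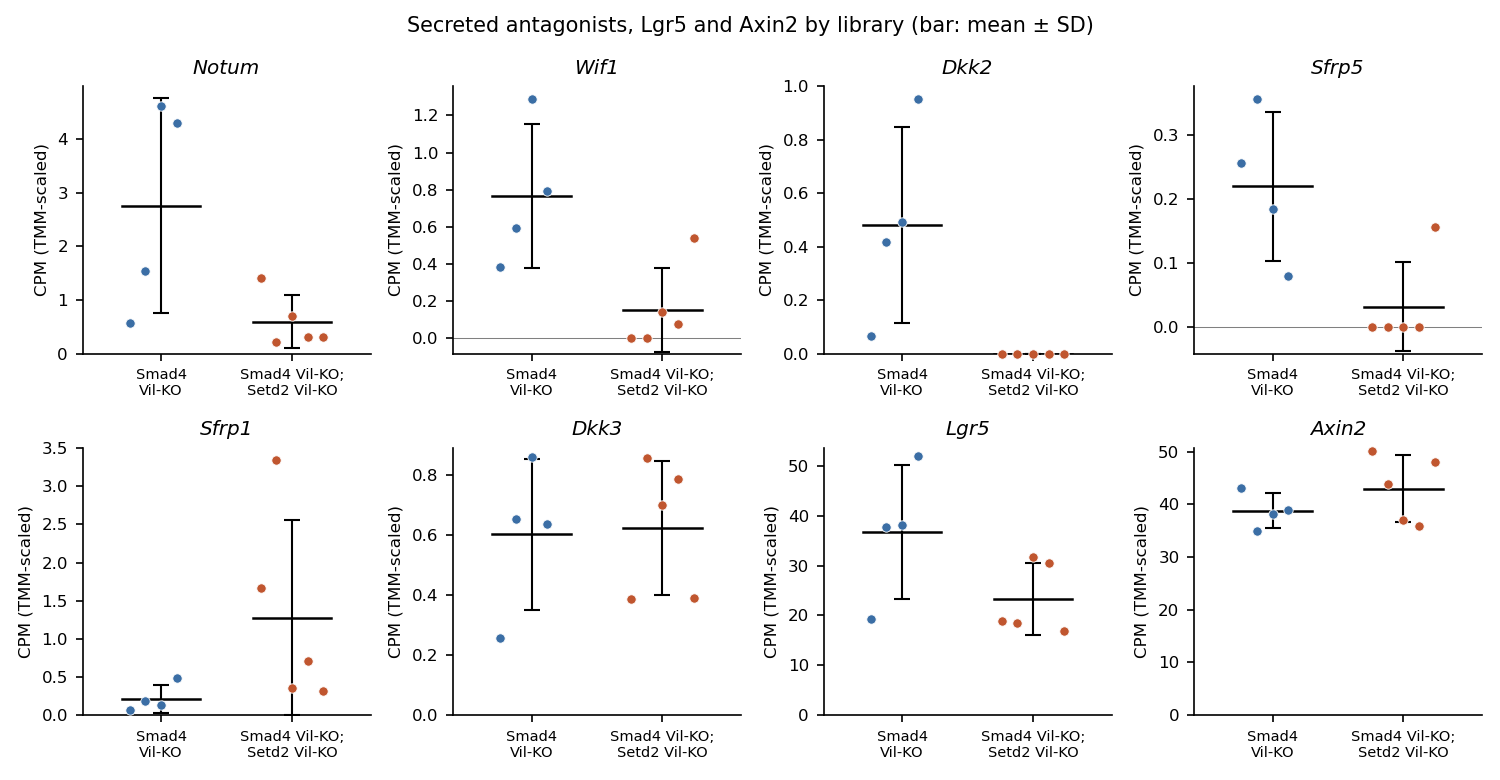
CPM in each library of the 6 secreted antagonists and of the Wnt targets Lgr5 and Axin2, with the mean and SD of each genotype in black. Dkk2 is at 0 in all 5 double-knockout libraries, Sfrp1 is high in double-knockout replicates 1 and 2 (1.67 and 3.34 CPM), and the Axin2 values of the genotypes overlap.

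Myc, a target gene of β-catenin in colorectal cells, lay at 35.9, 46.7, 38.6 and 37.1 CPM against 53, 31.5, 30.1, 32.5 and 33.2 CPM (-0.13 ± 0.17 SE, edgeR adjusted p = 0.62). Of its 5 double-knockout values 4 lay below all controls, and that of replicate 1 lay above all of them. Nkd1, Notum and Dkk2 shared an order among the Smad4 Vil-KO libraries, where replicate 1 was the lowest for each and replicates 3 and 4 were the highest. Lgr5, the stem cell receptor and Wnt target, had 19.2, 37.7, 38.2 and 51.9 CPM in these libraries, again lowest in replicate 1 and highest in replicate 4, and 18.8, 18.5, 31.7, 30.5 and 16.9 CPM in the double knockout (-0.66 ± 0.28 SE, edgeR adjusted p = 0.136). Axin2, a Wnt target often used as a readout, did not share this order, at 43, 34.9, 38.3 and 39 CPM against 50.1, 43.8, 37, 35.9 and 48.1 CPM (0.15 ± 0.12 SE, edgeR adjusted p = 0.416). Its fitted change turned to -0.09 with the term for high Y-linked counts and to -0.08 with only the libraries without such counts. Lgr5 and Axin2 are named here after their values were seen.

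Outside the 55 members, 84 further pathway genes were looked at in lists. Of the 64 tested, 1 passed as higher and 7 as lower, which is 1.56% against 6.76% of all genes higher and 10.9% against 6.54% lower (12.5% against 13.3% in either direction), and their median log2 fold change was -0.03. The count lower rested on single libraries, and the share of all genes called lower moved as well. The count was 1 without Smad4 Vil-KO replicate 3 (2.64% of all genes lower in that fit), 3 without any 1 of Smad4 Vil-KO replicates 1, 2 and 4 (3.41% to 4.06%), 4 without double-knockout replicate 4 (4.31%), 12 without double-knockout replicate 5 (9.08%) and 3 with the term for high Y-linked counts (4.33%). Among the receptors and extracellular regulators 1 of 11 tested passed: Kremen1, a Dkk co-receptor, at 27.6 to 31.4 CPM against 20.8 to 26.1 CPM (-0.40 ± 0.09 SE, edgeR adjusted p = 0.0214). Its call was lost without any 1 of Smad4 Vil-KO replicates 1, 2 and 3 (edgeR adjusted p = 0.0675, 0.0553 and 0.0705) and with a term for high Y-linked counts (edgeR adjusted p = 0.082). Among the intracellular components 1 of 26 passed as higher and 3 as lower. Csnk1a1, the casein kinase that primes β-catenin for Gsk3b, rose from 435, 432, 416 and 468 CPM to 582, 559, 576, 607 and 590 CPM without overlap (0.41 ± 0.07 SE, edgeR adjusted p = 0.00572). Tle3 and Tle2, Groucho corepressors that bind TCF factors, both fell. Tle3 lay at 46.4, 54.4, 44.8 and 50.5 CPM against 32.6, 29.2, 22.2, 27.4 and 36.5 CPM (-0.73 ± 0.13 SE, edgeR adjusted p = 0.00685), and Tle2 at 2.76 to 3.81 CPM against 0.569 to 2.03 CPM (-1.62 ± 0.36 SE, edgeR adjusted p = 0.0167). The Tle2 call was lost without Smad4 Vil-KO replicate 3 (edgeR adjusted p = 0.0576), with a term for high Y-linked counts (-0.99, edgeR adjusted p = 0.0922) and with only the libraries without such counts (-0.98, edgeR adjusted p = 0.0523). Btrc, the ubiquitin ligase subunit that recognizes phosphorylated β-catenin, lay at 19.8 to 22.5 CPM against 10.2 to 17 CPM (-0.67 ± 0.17 SE, edgeR adjusted p = 0.0291).

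Of the planar cell polarity genes 1 of 10 tested passed as lower (10%, against 6.54% of all genes), Prickle3, at 12.6 to 14.8 CPM against 7.82 to 11.3 CPM (-0.53 ± 0.14 SE, edgeR adjusted p = 0.0323). Of the intestinal Wnt target genes 2 of 21 tested passed, both lower (9.52%, against the same 6.54%), with a list median of -0.16. Sox9, a crypt transcription factor, lay at 79.4, 72.6, 77 and 71.1 CPM against 51.5, 41, 58.8, 51.8 and 70.3 CPM (-0.46 ± 0.13 SE, edgeR adjusted p = 0.0439). Jun, a subunit of AP-1, lay at 97.5, 91.6, 94.8 and 109 CPM against 55.8, 86.9, 72.6, 64 and 73 CPM (-0.48 ± 0.12 SE, edgeR adjusted p = 0.0246). Of the 64 further genes tested, 10 had every double-knockout value under every control value (15.6%, against 8.87% of all genes), the 7 called lower and Kremen2, Cby1 and Pygo2, and 1, Csnk1a1, had every value above (1.56%, against 8.34%). Of the 9 fits that each left out a library, Btrc passed in 2 (without double-knockout replicate 3 or 5), Prickle3 in 1 and Sox9 in 1 (without double-knockout replicate 5), and Jun in 5. Their edgeR adjusted p in these fits ran from 0.0152 to 0.0829 for Btrc, from 0.0167 to 0.106 for Prickle3, from 0.00945 to 0.114 for Sox9 and from 0.00924 to 0.0701 for Jun, whose call was lost without Smad4 Vil-KO replicate 1, 3 or 4 or double-knockout replicate 4. With a term for high Y-linked counts the calls of all 4 were lost (edgeR adjusted p = 0.15 for Btrc, 0.155 for Prickle3, 0.15 for Sox9 and 0.0696 for Jun), with only the libraries without such counts that of Prickle3 (edgeR adjusted p = 0.0503) and with the replicate number as a block that of Jun (edgeR adjusted p = 0.0564).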

How the data were processed

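RNA-seq of colonic IECs was analysed in 9 mice (4 Smad4 Vil-KO mice and 5 double-knockout mice that also carry the Setd2 deletion), grouped by the genotype in the sample labels. The authors deposited whole-number counts per gene symbol and library, not normalized and not pooled. The submitters' processing notes name HISAT2 2.0 and mm10, and the counting program, annotation and strand setting are not given in the sources used here. Of the 55 members 28 overlap another annotated gene, 7 of them a protein-coding one (Dvl1 shares 36 bp with Tas1r3), and without strand reads of such pairs cannot be told apart. Of the 46095 symbols 27 had been turned into dates and stayed unnamed.

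Genes were filtered with filterByExpr of edgeR 4.0.16 in R 4.3.3 (14593 kept), normalized with TMM and tested with the quasi-likelihood test, without covariates, with Benjamini-Hochberg adjustment over all genes tested and a threshold of 0.05. No differential expression tool is named by the study. The SE was taken as the size of the log2 fold change divided by the square root of F. CPM are counts scaled by the library total times its TMM factor. Levels per length used merged exons of GENCODE M21, and positions and promoters came from RefSeq (GRCm38.p6). A fold against a group at 0 counts used a floor of 3 counts per library, and intervals of summed counts are exact 95% binomial intervals that cover counting error only. Libraries of 1 genotype differed beyond sampling noise (chi-square per gene of at least 9.95), so all 9 were kept as replicates, and p-values measure the spread between these mice. The test recovered most of 200 genes changed in counts simulated from the means and fitted dispersions of the tested genes. Such counts cannot show how it treats members below the filter or libraries that stand apart.

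The members, the lists and the alternatives were chosen with earlier results of these data known. Named are members that passed the test or did not overlap between genotypes, the 2 members with the highest level per length of each role, the 3 genes of the primer list, members below the filter, further genes that passed, Setd2, Smad4, the Y-linked genes and marker lists as sums; other genes were chosen after their values were seen. Of the colonic epithelium list 1 marker, and with it the summed level, is not reported here. Alternatives were DESeq2 1.42.0, limma-voom (limma 3.58.1), no scaling beyond library size, size factors of DESeq2 in edgeR, no filter, a minimum of 10 counts in all libraries, leaving out each library, the replicate number as a block, a term for libraries with high Y-linked counts (at least 100 counts), only libraries without them, and calls at more than 1.5-fold with unadjusted p under 0.05.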

Additional observations from a re-analysis of the deposited data

Results flagged for a closer look

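Among 94 sets of values (47 genes in 2 genotypes), 6 held a library whose gap to the nearest other library exceeded Dixon's 95% critical value for the group's size, and chance flags about 1 in 20. Lrp5 was low in Smad4 Vil-KO replicate 4 (90.27 CPM, the others 103 to 105.4 CPM), and Smad4 was high in Smad4 Vil-KO replicate 1 (92.71 CPM, the others 54.26 to 55.41 CPM). Double-knockout replicate 1 was low for Lgr4 (210 CPM, the others 247 to 256.9 CPM) and high for Myc (53.01 CPM, the others 30.13 to 33.19 CPM). Double-knockout replicate 5 was the highest of its genotype for Wif1 (0.5428 CPM, the others 0 to 0.1398 CPM) and the only one above 0 for Sfrp5 (0.1551 CPM, from 2 counts).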

How the results depend on the processing

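The count of members higher in the double knockout was 2, and within 1.5 times of it in every alternative but the term for high Y-linked counts, which gave 1 (Cxxc4). Of all genes 6.76% were higher in the main fit and 4.47% with that term. The count lower was 3, with 6.54% of all genes lower. It was 5 under DESeq2 (9.13% of all genes), without a filter (3.6%) and with only the libraries without high Y-linked counts (10.1%). Calls at more than 1.5-fold and unadjusted p under 0.05 also gave 5 (6.24%). With at least 10 counts in every library, a filter that drops Nkd1 and Wnt8b, it was 1 (6.48%). When each library was left out it was 2 to 6 (2.64% to 9.08%), with 6 without double-knockout replicate 5 (9.08%). The same replicate numbers paired the genotypes poorly (correlation of their deviations -0.104 to 0.088). The fit with the replicate block gave 2 higher and 5 lower, adding Fzd1 and Tcf7l1 (5.39% and 5.69% of all genes). The further pathway genes gave 1 higher and 7 lower, and 3 and 12 under DESeq2 (10% and 9.13% of all genes). With only the libraries without high Y-linked counts they gave 2 and 12 (9.29% and 10.1%), and with the term for such counts 1 and 3 (4.47% and 4.33%). When each library was left out they gave 1 to 2 and 1 to 12 (3.06% to 9.52% and 2.64% to 9.08%). Of 604 values for single genes 534 kept their direction and side of the threshold, 45 lost the call, 12 gained it and 13 changed sign, each in a gene that was not called. These were Axin1 (-0.2141 with the term and -0.2101 with only the libraries without high Y-linked counts), Axin2 (-0.0876 and -0.083), Smad4 (-0.7053 and -0.7021, -0.1378 with the replicate block, and -0.1104 to 0.3655 when each library was left out) and Lgr4 (0.0112 and 0.016, 0.0038 with library size alone, and -0.0546 to 0.0233 when each library was left out). The cause was not tested. Libraries of 12487129 to 17120202 counts leave most ligands and secreted antagonists at a few counts, where only large differences can be seen.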
